A study of Mus musculus with 36 samples.

Results

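The retina after optic nerve (ON) crush was compared directly between 2 weeks (2 W) and 3 days (3 D) after the injury, without using the naïve retina as the reference. The members are 4 bulk RNA-seq libraries of 36 in the series, chosen from the sample titles: the 2 retinal libraries labelled 2 W and crush, and the 2 labelled 3 D and crush. At each time 1 library was a pool of RNA from a pair of female mice and the other a pool from a pair of male mice, so that n = 2 pools for each time and the pools of a time differ in sex as well as in mice. All mice were C57BL/6 of 2 to 4 months, and no transgene or deletion is named for them. The ON was crushed on 1 side behind the globe with self-closing forceps, and whole retinas of the injured left eyes were taken, so that all retinal cell types contribute to each value. The same mice also gave the unmyelinated ON (UON) and the myelinated ON (MON). Retinas of bilaterally naïve mice (0 D, 1 female and 1 male pool) are given as levels beside the results, and the retinas at 3 D and 2 W after microbead injection, the glaucoma model of the series, were used for 1 test of difference.

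Crush interrupts the axons of the retinal ganglion cells (RGCs), the only retinal neurons that project to the brain. The retina itself is not touched. Injured RGCs first switch on an injury program led by transcription factors such as ATF3, JUN and SOX11 and by stress kinases, among them DLK, which also drives the integrated stress response through ATF4. RGC loss is known to be slight in the first days after crush and extensive within weeks. Müller glia, astrocytes and microglia of the retina respond over the same period, with signals of the IL-6 family acting through gp130 and STAT3.

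Values are CPM, estimated counts relative to the size of the library, scaled by TMM factors over the 6 retinal libraries of crush and naïve mice, made from the estimated counts the authors deposited, and pairs of values are given as the female pool followed by the male pool. A call required both an adjusted p under 0.05 in edgeR's quasi-likelihood F test and a log2 fold change (2 W over 3 D) beyond 1 in either direction. Adjusted p and calls are those of edgeR unless DESeq2 is named. Since the tissue is bulk retina, a lower value may come from fewer cells of a type or from less RNA per cell, which cannot be told apart here. The 4 libraries held 31.4 to 56.0 M estimated counts. Rod genes were abundant in each of them, with Gnat1, rod transducin, between 18915 and 24542 CPM, while the corneal keratin Krt12 and the oligodendrocyte gene Mog stayed under 1 CPM in all 4. Pools of one time were about as far from each other as from pools of the other time. The root mean square difference in log2 CPM was 0.467 between the 3 D pools and 0.460 between the 2 W pools. It was 0.454 to 0.483 between a 3 D pool and a 2 W pool, and 0.41 to 0.52 over all pairs of the 6 crush and naïve pools.

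Of 21551 genes tested, 24 were called (0.111%): 15 were lower at 2 W (0.0696%) and 9 were higher (0.0418%). The lower genes included genes of RGCs and their axons, namely the vesicular glutamate transporter Slc17a6, gamma-synuclein Sncg, and the neurofilaments Nefl and Nefm. The macrophage metalloelastase Mmp12 was the single called gene of the injury list. Without the adjustment, 1161 of the 21551 genes had p under 0.05, of which 753 were lower and 408 higher at 2 W. A share of about 0.05 would have such p if no gene changed, and the total was near that share. The total alone cannot show whether many genes changed by small amounts. DESeq2 on the same libraries and terms called 128 of 37323 genes (0.343%), 99 lower (0.265%) and 29 higher (0.0777%), and 23 of its calls were among the 24. As a background for the counts below, both 2 W pools lay below both 3 D pools in 4112 genes tested (19.1%) and above them in 3775 (17.5%), and the median log2 fold change over all genes was 0.00085.

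**Figure D1:**
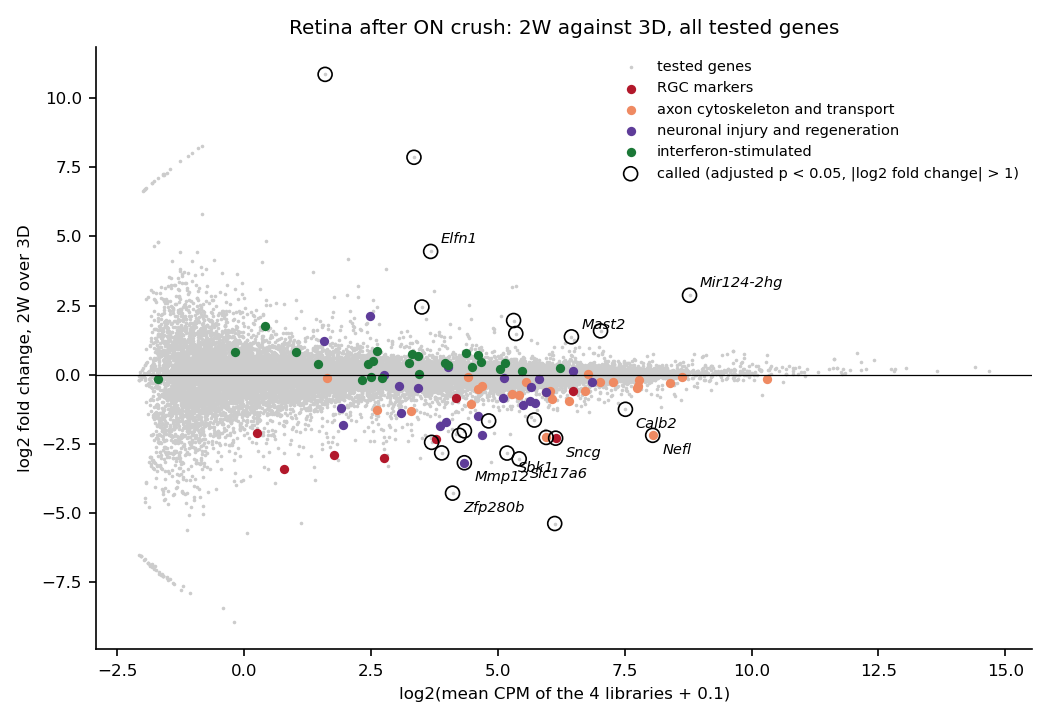
Log2 fold change of each tested gene (2 W over 3 D, vertical axis) against its mean level, as log2 of the mean CPM of the 4 libraries plus 0.1 (horizontal axis). Grey points are the 21551 tested genes, coloured points are members of 4 gene lists and open circles are the 24 called genes. RGC markers and axon genes lie at or below 0 but for 1 axon gene, Kcnab2, and no member of the interferon list is circled.

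RGC markers had the lowest median change of the lists plotted here. All 8 of them (Rbpms, Rbpms2, Tubb3, Sncg, Thy1, Pou4f1, Pou4f2 and Pou4f3) were lower in both 2 W pools than in both 3 D pools, with a median log2 fold change of -2.30. One of the 8, Sncg, passed the test in edgeR and 5 (Sncg, Rbpms, Rbpms2, Pou4f1 and Pou4f3) passed it in DESeq2. Sncg (gamma-synuclein, a presynaptic and axonal protein highly enriched in RGCs, GRCm38 chr14:34370274-34374789) stood at 123 and 111 CPM at 3 D and at 23.7 and 23.7 CPM at 2 W. The naïve pools held 252 and 202 CPM. The 2 pools of each time were close together and the times did not overlap, with a log2 fold change of -2.30 (SE 0.16) and an adjusted p of 0.00393, a 4.91-fold lower level.

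Rbpms, an RNA-binding protein used as a pan-RGC marker, measured 23.9 and 21.5 CPM at 3 D, 3.69 and 5.60 CPM at 2 W and 44.4 and 37.6 CPM in naïve retina. The log2 fold change was -2.31 (SE 0.30) and the adjusted p 0.0586, just over the threshold in edgeR. In DESeq2 it passed, with an adjusted p of 4.84e-08. Its paralog Rbpms2 measured 13.4 and 9.95 CPM at 3 D and 2.62 and 0.710 CPM at 2 W (log2 fold change -3.02, SE 0.45, adjusted p = 0.0796). Pou4f1, which encodes the RGC transcription factor BRN3A, measured 6.07 and 5.62 CPM at 3 D and 0.823 and 0.737 CPM at 2 W (log2 fold change -2.89, SE 0.44, adjusted p = 0.0807). Each of these genes was separated by time in both sexes. The other BRN3 genes were low throughout. Pou4f2 measured 2.71 and 0.927 CPM at 3 D and 0.311 and 0.437 CPM at 2 W, and Pou4f3 1.76 and 3.99 and 0.0732 and 0.655 CPM. Their adjusted p were 0.846 and 0.265 in edgeR, and DESeq2 called Pou4f3 (adjusted p = 0.0272) and not Pou4f2.

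Tubb3 and Thy1 had the smallest log2 fold changes of the markers. Tubb3, the neuronal beta-tubulin that other retinal neurons also express, measured 118 and 97.4 CPM at 3 D and 71.1 and 69.4 CPM at 2 W (log2 fold change -0.61, SE 0.15, adjusted p = 0.428). Thy1, a surface glycoprotein, measured 24.9 and 21.4 CPM and 10.7 and 14.96 CPM (log2 fold change -0.86, SE 0.26, adjusted p = 0.607), and its naïve pools were themselves far apart, at 15.4 and 37.1 CPM. The lower level at 2 W was present in both sexes, with a median log2 difference of -2.53 between the female pools and -2.08 between the male pools.

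Set beside the naïve pools, both 3 D pools were already below both naïve pools in 6 of the 8 markers, and both 2 W pools in 8 of 8. Over all genes tested those shares were 18.3% and 19.8%. The exceptions at 3 D were Thy1 and Pou4f3.

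Slc17a6 did not follow this order. It encodes the vesicular glutamate transporter VGLUT2 of RGCs (GRCm38 chr7:51622006-51671119), and its level at 3 D, 66.4 and 86.3 CPM, was around that of the naïve pools, 71.7 and 78.8 CPM. At 2 W it was 9.36 and 8.90 CPM. The log2 fold change of -3.04 (SE 0.21), an 8.24-fold lower level, was larger than those of the other called RGC and axon genes (adjusted p = 0.00393). It was among the 5 genes called in each of the 11 alternative settings, the others being Nefl, Nefm, Sbk1 and Zfp280b.

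**Figure D2:**
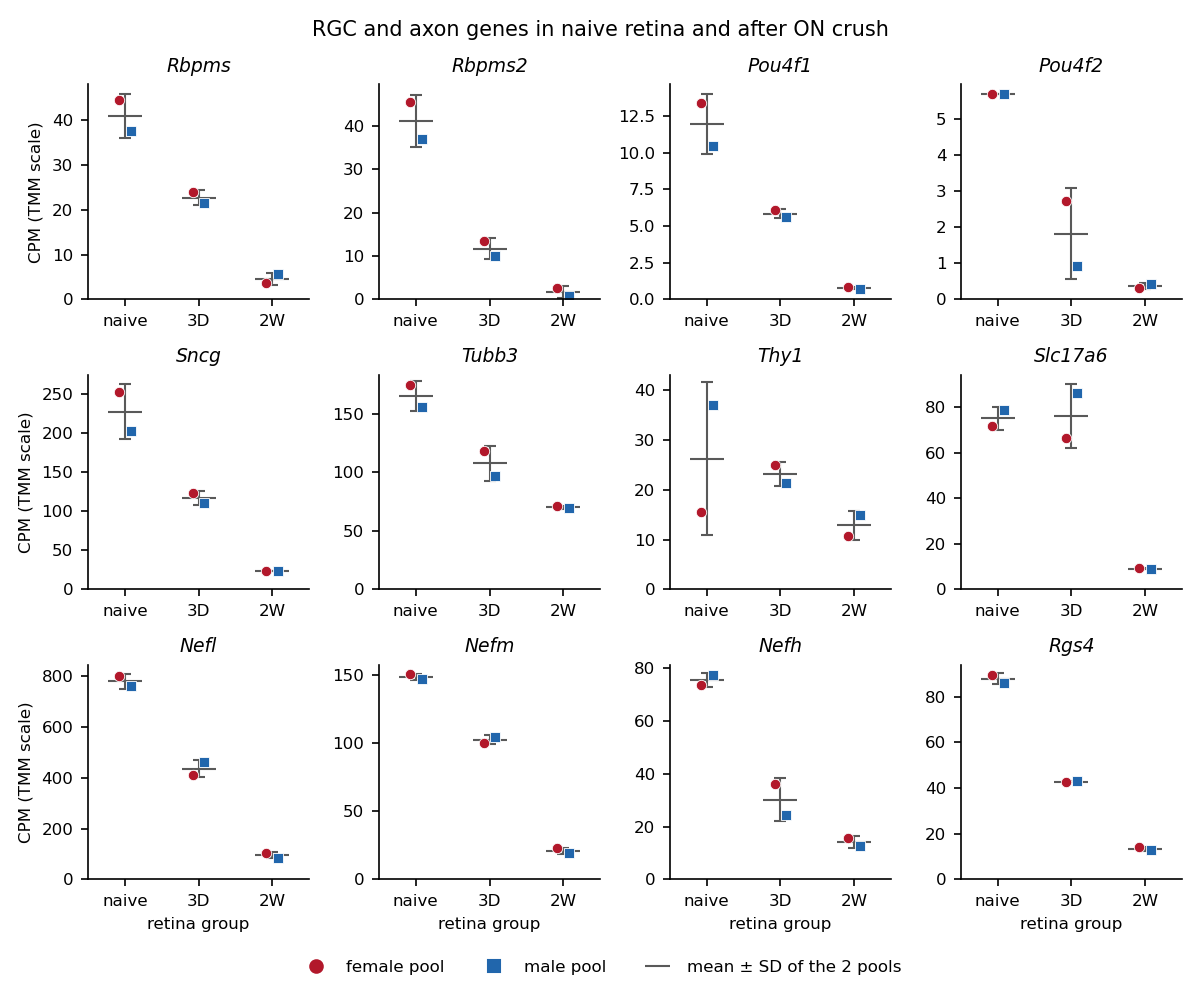
CPM (vertical axes, each starting at 0) of 12 RGC and axon genes in naïve, 3 D and 2 W retina. Red circles are female pools, blue squares are male pools, and grey bars show the mean ± SD of the 2 pools. Most genes step down from naïve to 3 D to 2 W, whereas Slc17a6 is at 66.4 and 86.3 CPM at 3 D, near its naïve level, before it reaches 9.36 and 8.90 CPM.

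The transcription factors and subtype genes of RGCs were more mixed. Of 27 tested, both 2 W pools were below both 3 D pools in 14 and above them in 1, the median log2 fold change was -0.48, and Slc17a6 was the single call in edgeR, with 4 calls in DESeq2. Genes with low 2 W values included Nrn1 (neuritin), at 24.5 and 8.60 CPM at 3 D and 3.55 and 2.84 CPM at 2 W, and the calcium buffer Pvalb, at 14.9 and 6.62 CPM and 2.40 and 2.57 CPM. Their 3 D pools differed from each other by more than 2-fold, and their adjusted p were 0.126 and 0.254. Opn4, the photopigment of intrinsically photosensitive RGCs, measured 2.93 and 4.99 CPM at 3 D and 1.83 and 1.97 CPM at 2 W, with a log2 fold change of -1.005 (SE 0.45) and an adjusted p of 0.938. Eomes (TBR2), a transcription factor of those same cells, measured 3.20 and 2.78 CPM and 2.82 and 3.41 CPM, and its times overlapped.

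Axonal genes gave 2 calls in edgeR, both neurofilaments, and DESeq2 also called Nefh. Nefl, the light subunit of the intermediate filaments that fill large axons (GRCm38 chr14:68083863-68089095), measured 410.5 and 459.8 CPM at 3 D and 104 and 86.1 CPM at 2 W, against 799 and 757 CPM in naïve retina. The log2 fold change was -2.19 (SE 0.17), with an adjusted p of 0.00412. Nefm, the medium subunit (GRCm38 chr14:68082590-68124846), measured 100.1 and 105 CPM at 3 D and 22.8 and 19.7 CPM at 2 W, against 150.3 and 147 CPM in naïve retina (log2 fold change -2.27, SE 0.17, adjusted p = 0.00412). The annotated spans of these neighbours on chromosome 14 overlap on opposite strands, and whether strand was used in counting is not given in the sources used here, so their counts may share some reads. The FPKM of both genes, which StringTie wrote for each library, also separated the times, as they did for each of the 24 called genes. They rest on the same aligned reads, so they cannot show whether reads were shared. The heavy subunit Nefh measured 36.0 and 24.5 CPM and 15.7 and 12.5 CPM, against 73.6 and 77.3 CPM in naïve retina, and did not pass in edgeR (log2 fold change -1.08, SE 0.21, adjusted p = 0.229), while it passed in DESeq2 (adjusted p = 0.0182).

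Of the 26 genes of axon cytoskeleton and transport, 22 were lower in both 2 W pools than in both 3 D pools and none were higher in both, with a median log2 fold change of -0.52. Both 2 W pools were below both naïve pools in 24 of 26 (92.3%, against 19.8% of all genes). No member besides Nefl and Nefm was called in edgeR. Stmn2, a microtubule regulator of growing axons, measured 82.1 and 90.4 CPM at 3 D and 43.6 and 50.7 CPM at 2 W (log2 fold change -0.87, SE 0.15, adjusted p = 0.150). The deubiquitinase Uchl1 measured 104 and 118 CPM and 59.2 and 55.9 CPM (log2 fold change -0.94, SE 0.16, adjusted p = 0.116). Motors and microtubule-associated proteins that all retinal neurons use, such as Kif1a and Map1b, had log2 fold changes of -0.10 and -0.14.

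Rgs4, Sbk1 and Calb2 were also called, with a 3 D level below the naïve level and the 2 pools of each time close together. Rgs4, a regulator of G-protein signalling, measured 42.7 and 43.0 CPM at 3 D and 14.1 and 12.7 CPM at 2 W, against 89.4 and 86.0 CPM in naïve retina (log2 fold change -1.67, SE 0.20, adjusted p = 0.0439). Sbk1, a serine/threonine kinase of the brain (GRCm38 chr7:126248862-126295016), measured 63.2 and 63.7 CPM and 8.92 and 8.79 CPM, against 82.1 and 81.4 CPM (log2 fold change -2.83, SE 0.19, adjusted p = 0.00393). Calb2 encodes calretinin, a calcium-binding protein of amacrine cells as well as RGCs. It measured 245 and 269.6 CPM at 3 D and 114 and 102 CPM at 2 W, against 446 and 372 CPM in naïve retina (log2 fold change -1.25, SE 0.15, adjusted p = 0.0439). Calb2 was the single call among 22 amacrine and horizontal cell genes, whose median log2 fold change was 0.01.

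Zfp280b, a zinc-finger gene, had the largest fall by counts of the called genes with an official symbol, from 27.4 and 37.9 CPM to 1.87 and 1.42 CPM with a log2 fold change of -4.28 (SE 0.32) and an adjusted p of 0.00412. Its naïve pools held 32.9 and 33.4 CPM. On FPKM the log2 change of the means was -0.86, so that counts and FPKM gave very different sizes for this gene. Skida1 measured 81.6 and 76.8 CPM at 3 D and 31.7 and 20.1 CPM at 2 W (log2 fold change -1.64, SE 0.20, adjusted p = 0.0439). The tRNA modifier Yrdc and Lrrc47 had log2 fold changes of -2.19 and -2.83, with adjusted p of 0.0373 and 0.0439. Each of the latter pair overlaps a neighbouring gene on the opposite strand, and the sum over the overlapping genes changed by -0.40 and -1.84 on the log2 scale.

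Most injury genes stood above naïve at 3 D and lay lower at 2 W. Among 24 genes of neuronal injury and regeneration, both 3 D pools were above both naïve pools in 20 (83.3%), against 20.9% of all genes. At 2 W this held for 14 (58.3%), against 21.8% of all genes. From 3 D to 2 W, both pools were lower in 17 and higher in 4, with a median log2 fold change of -0.75. Mmp12 was called in edgeR, and DESeq2 called 6 lower and 1 higher.

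Mmp12, an elastase secreted by macrophages (GRCm38 chr9:7344381-7369499), measured 29.2 and 43.6 CPM at 3 D and 3.60 and 4.23 CPM at 2 W, against 1.03 and 0.409 CPM in naïve retina. The log2 fold change was -3.18 (SE 0.25), a 9.08-fold lower level, with an adjusted p of 0.00412. The fall was present in both sexes. The call was lost with the naïve pools in the fit (adjusted p = 0.0921) and with all 12 retinal libraries (adjusted p = 0.729). It was also lost in each of the 4 fits that held the naïve pools and left out a crush pool. Beside it, of 26 genes of activated and phagocytic microglia 6 were lower and 7 higher in both 2 W pools, none were called, and the median log2 fold change was -0.02.

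Sprr1a, a cornifin-family protein induced in axotomized neurons, was at 0 in both naïve pools. It measured 18.7 and 26.3 CPM at 3 D and 5.43 and 7.01 CPM at 2 W (log2 fold change -1.84, SE 0.26, adjusted p = 0.0700). The transcription factor Sox11 measured 17.6 and 30.7 CPM at 3 D and 5.98 and 8.19 CPM at 2 W, against 2.36 and 3.55 CPM in naïve retina (log2 fold change -1.73, SE 0.25, adjusted p = 0.0796). Cdkn1a, the p53 target p21, measured 29.7 and 42.4 CPM and 11.3 and 13.6 CPM, against 8.31 and 9.38 CPM (log2 fold change -1.51, SE 0.21, adjusted p = 0.0700). None of these passed in edgeR, and DESeq2 called each of them, with adjusted p of 9.30e-06, 3.05e-05 and 1.80e-05.

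Some injury genes stayed above naïve at 2 W, Ecel1 far above it and Atf3 and Jun by less. Ecel1, an endopeptidase induced by nerve injury, measured 0.583 and 0.818 CPM in naïve retina, 45.1 and 87.1 CPM at 3 D and 33.5 and 31.3 CPM at 2 W. Its log2 fold change from 3 D to 2 W was -0.95 (SE 0.26), with an adjusted p of 0.504. Atf3 measured 14.8 and 17.8 CPM in naïve retina, 47.6 and 97.0 CPM at 3 D and 37.5 and 29.6 CPM at 2 W (log2 fold change -1.02, SE 0.31, adjusted p = 0.598). Its 3 D pools were themselves about 2-fold apart. Gap43, the growth cone protein, measured 62.9 and 88.3 CPM and 47.0 and 48.1 CPM, with a log2 fold change of -0.64 (SE 0.18). Jun, an early transcription factor of the response, measured 113 and 141 CPM and 112 and 98.5 CPM, and both times were above the naïve pools at 84.8 and 79.5 CPM (log2 fold change -0.26, SE 0.17, adjusted p = 1). The neuropeptide gene Gal measured 5.67 and 6.12 CPM and 1.79 and 1.501 CPM (log2 fold change -1.83, SE 0.40, adjusted p = 0.286).

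BH3-only genes, which promote cell death, were low in all libraries. Hrk, a BH3-only gene of the DLK and JUN pathway, measured 4.59 and 5.54 CPM at 3 D and 2.34 and 2.05 CPM at 2 W (log2 fold change -1.20, SE 0.41, adjusted p = 0.731). Bbc3 (PUMA) measured 1.17 and 3.84 CPM and 1.298 and 1.34 CPM, and its times overlapped. Bmf, another BH3-only gene, measured 1.73 and 1.13 CPM and 7.08 and 6.66 CPM, higher in both 2 W pools, and passed in DESeq2 (adjusted p = 0.00685) but not in edgeR (log2 fold change 2.30, SE 0.41, adjusted p = 0.150). Over 23 tested p53 targets and cell death genes the median log2 fold change was -0.00141 and none were called in edgeR, while DESeq2 called Bmf higher and Cdkn1a lower.

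**Figure D3:**
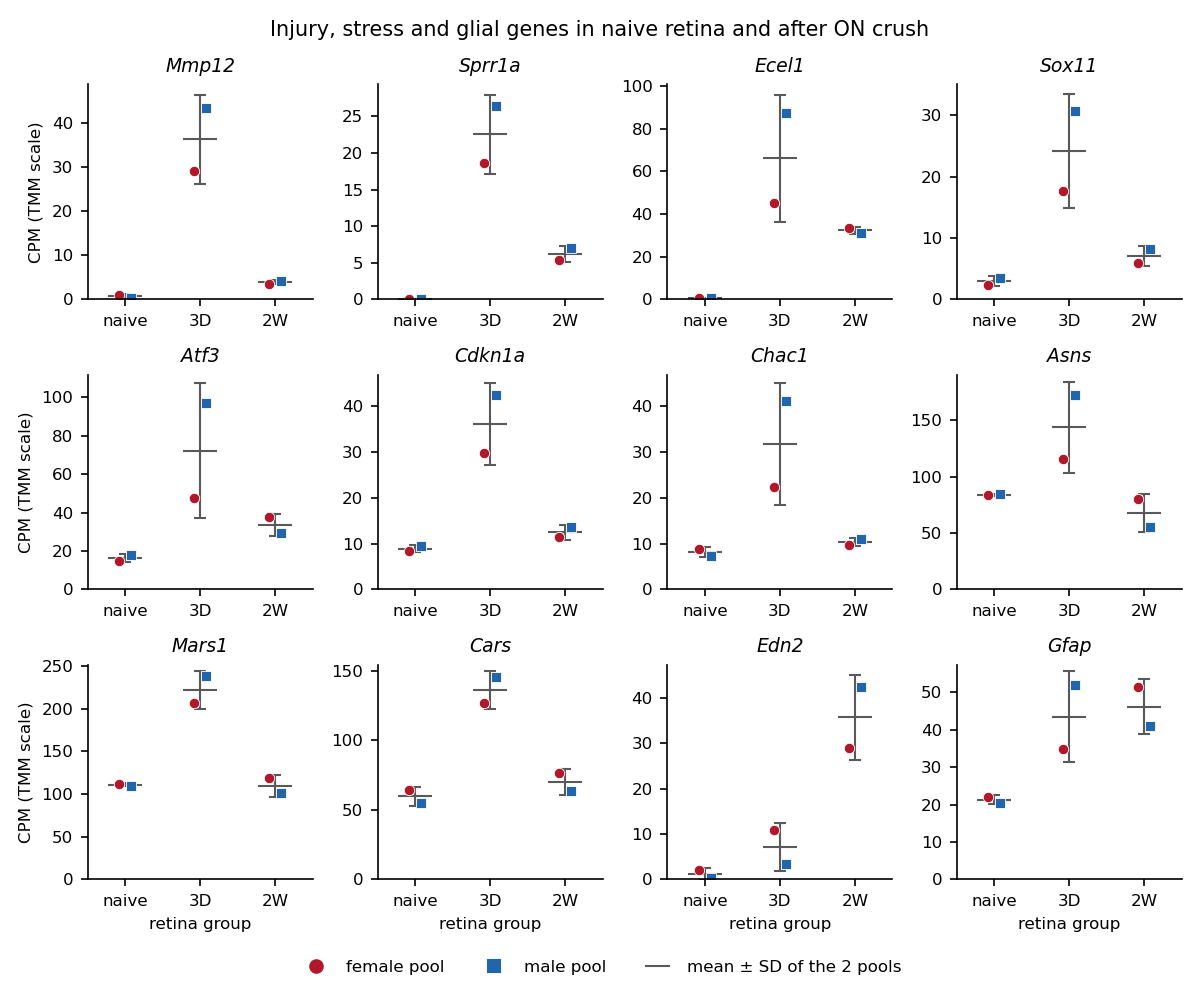
CPM (vertical axes, each starting at 0) of 12 injury, stress and glial genes in naïve, 3 D and 2 W retina, with female pools as red circles, male pools as blue squares and grey bars for the mean ± SD of the 2 pools. Mmp12, Sprr1a and Sox11 peak at 3 D, Ecel1 stays at 33.5 and 31.3 CPM at 2 W, Mars1 and Cars return to their naïve levels, and Edn2 is highest at 2 W.

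Genes of the integrated stress response also lay lower at 2 W, without a call in edgeR. ATF4 and its partners bind the C/EBP-ATF response element, searched here as TGATGNAA on both strands, in promoters of genes for amino acid synthesis, amino acid transport and tRNA charging. The windows of 4 members with a match are shown because their 3 D values stood above the 2 W values and the match lies in the 250 bases before the start site. Each is the 250 bases before the start of the RefSeq gene on GRCm38.p6, read 5′ to 3′ on the gene's strand, and capitals mark the match. The windows are chr2:119350992-119351241 on the plus strand for Chac1, chr6:7693210-7693459 on the minus strand for Asns, chr8:111033592-111033841 on the plus strand for Aars and chr6:55037751-55038000 on the plus strand for Gars.
Chac1: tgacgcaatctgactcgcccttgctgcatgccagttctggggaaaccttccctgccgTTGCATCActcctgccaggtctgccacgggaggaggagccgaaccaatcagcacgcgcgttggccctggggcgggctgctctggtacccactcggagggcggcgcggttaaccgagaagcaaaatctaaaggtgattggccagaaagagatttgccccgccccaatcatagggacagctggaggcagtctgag
Asns: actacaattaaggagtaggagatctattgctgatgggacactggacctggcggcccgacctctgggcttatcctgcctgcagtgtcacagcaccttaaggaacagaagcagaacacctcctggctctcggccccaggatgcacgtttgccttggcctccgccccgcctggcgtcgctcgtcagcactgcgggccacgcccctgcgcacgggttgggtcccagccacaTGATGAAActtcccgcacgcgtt
Aars: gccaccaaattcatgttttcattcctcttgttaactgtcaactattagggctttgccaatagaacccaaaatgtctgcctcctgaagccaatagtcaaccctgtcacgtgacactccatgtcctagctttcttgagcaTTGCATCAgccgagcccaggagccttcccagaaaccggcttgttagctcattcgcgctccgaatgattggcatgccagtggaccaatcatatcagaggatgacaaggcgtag
Gars: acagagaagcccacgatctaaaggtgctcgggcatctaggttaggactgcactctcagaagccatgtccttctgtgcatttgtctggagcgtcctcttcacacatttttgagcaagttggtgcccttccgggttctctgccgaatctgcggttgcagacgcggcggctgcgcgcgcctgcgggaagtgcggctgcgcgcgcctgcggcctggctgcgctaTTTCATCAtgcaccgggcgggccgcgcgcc
The first base of the match stands at -193 from the start site in Chac1, -23 in Asns, -112 in Aars and -30 in Gars. Shares were counted over the whole RefSeq window, from 250 bases before to 50 bases after the start. Such a match was found in 6 of the 18 integrated stress response genes that have a window (33.3%) and in 5 of the 13 cytoplasmic tRNA synthetases (38.5%). The share was 2.79% among 13245 tested genes with a window, 4.51% among all 27025 genes with one, and 0 of 14 among mitochondrial synthetases. Aars holds another match after the start site. Known ATF4 targets are among the members of both lists, so a higher share follows in part from how the lists were chosen. A match describes the letters of the window and not the binding of a factor.

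Of 21 integrated stress response genes tested, both 2 W pools were below both 3 D pools in 16 and above them in 1, with a median log2 fold change of -0.38 and none called in edgeR, against 4 in DESeq2. Both 3 D pools were above both naïve pools in 15 (71.4%, against 20.9% of all genes), and both 2 W pools in 6 (28.6%, against 21.8%). Chac1, which degrades glutathione and is a sensitive ATF4 target, measured 22.4 and 41.2 CPM at 3 D and 9.77 and 10.9 CPM at 2 W, against 8.87 and 7.37 CPM in naïve retina (log2 fold change -1.55, SE 0.26, adjusted p = 0.116). Asns, asparagine synthetase, measured 115 and 172 CPM and 79.8 and 55.8 CPM, against 83.4 and 84.5 CPM (log2 fold change -1.07, SE 0.25, adjusted p = 0.343). Ddit3 (CHOP) measured 115 and 167 CPM and 113 and 99.6 CPM, with a log2 fold change of -0.38 (SE 0.19). Its female pools were nearly level. Under another scaling of the same libraries they stood at 115.3 CPM at 3 D and 115.6 CPM at 2 W, so that the times overlapped. Phgdh and Mthfd2, of serine and one-carbon metabolism, had log2 fold changes of -1.25 (SE 0.24) and -1.23 (SE 0.31). Atf4 itself changed little in its RNA, with 209 and 260.0 CPM at 3 D, 208 and 213 CPM at 2 W and a log2 fold change of -0.14.

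The cytoplasmic aminoacyl-tRNA synthetases, which charge tRNAs with amino acids, are a second group with ATF4 targets among its members. The list was written after values of some members had been seen, so its counts are a description only. Of 20 tested, 11 were lower in both 2 W pools than in both 3 D pools and 2 were higher, with a median log2 fold change of -0.37. None were called in edgeR and 1 was called in DESeq2. An unadjusted p under 0.05 was found for 10, all lower, against 753 lower of 21551 over all genes. Mars1 (methionine) measured 206 and 238 CPM at 3 D, 119 and 101 CPM at 2 W and 112 and 109 CPM in naïve retina, so that the 2 W values were back at the naïve level (log2 fold change -1.01, SE 0.16, adjusted p = 0.104). Cars (cysteine) measured 126 and 146 CPM, 76.6 and 63.5 CPM and 64.2 and 55.0 CPM in the same order of groups, with a log2 fold change of -0.95 (SE 0.17) and an adjusted p of 0.151. Aars and Gars, the 2 synthetases whose windows are printed above, had log2 fold changes of -0.81 (SE 0.16) and -0.76 (SE 0.16). Others of the family, among them Hars, Kars and Qars, had log2 fold changes of -0.00282, 0.03 and 0.09. The 17 mitochondrial synthetases had a median of 0.01, and 4 were lower and 2 higher in both 2 W pools.

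The male 3 D pool carried higher values than the female 3 D pool in most injury and stress genes. It was higher in 87.5% of the injury list, 81.0% of the integrated stress response list and 90% of the cytoplasmic synthetases, against 49.6% of all genes. The median log2 difference between the times was -0.41 in the female pools and -0.92 in the male pools for the injury list, and -0.30 and -0.75 for the stress list. The direction of the medians was thus the same in both sexes. With 1 pool per sex and time, sex and the particular mice cannot be told apart.

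Antioxidant and immediate early genes also lay lower at 2 W, without calls in edgeR. Of 13 NRF2 targets and metallothioneins, 9 were lower in both 2 W pools and 1 was higher, with a median log2 fold change of -0.54. DESeq2 called 2 of the 13 lower, among them Hmox1 (adjusted p = 0.0114). Hmox1, heme oxygenase 1, measured 16.3 and 18.7 CPM at 3 D and 7.10 and 5.98 CPM at 2 W, against 8.03 and 5.54 CPM in naïve retina (log2 fold change -1.42, SE 0.28, adjusted p = 0.229 in edgeR). Of 28 immediate early genes, 15 were lower in both 2 W pools and 2 were higher, with a median of -0.28. Fos measured 48.2 and 45.7 CPM at 3 D and 24.9 and 25.3 CPM at 2 W (log2 fold change -0.90, SE 0.18, adjusted p = 0.232). Egr1 measured 49.1 and 47.1 CPM and 28.3 and 30.9 CPM, and its 2 W pools were still above the naïve pools at 19.8 and 19.4 CPM (log2 fold change -0.70, SE 0.18, adjusted p = 0.444). Ccn1, a matricellular gene induced early after injury, measured 9.40 and 14.9 CPM and 8.39 and 6.28 CPM, with a log2 fold change of -0.70 (SE 0.35). Matrix and scarring genes were lower in both 2 W pools in 13 of 21 and higher in none, with a median of -0.46. Cholesterol synthesis genes were lower in 11 of 19 and higher in 2, with a median of -0.32.

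Of the genes that mark glial activation, Gfap, Stat3, Osmr and Socs3 overlapped between the times, and both times lay above naïve. Gfap, the intermediate filament of astrocytes and reactive Müller glia, measured 22.1 and 20.5 CPM in naïve retina, 34.9 and 52.1 CPM at 3 D and 51.5 and 41.0 CPM at 2 W. The log2 fold change of Gfap was 0.11 (SE 0.24), with an adjusted p of 1. Stat3 measured 42.5 and 49.98 CPM in naïve retina, 108 and 90.1 CPM at 3 D and 85.8 and 93.2 CPM at 2 W, and Osmr, the oncostatin M receptor, 3.52 and 4.61 CPM, 11.4 and 10.95 CPM and 9.75 and 11.57 CPM. The log2 fold changes from 3 D to 2 W were -0.14 (SE 0.16) and -0.07 (SE 0.28). Socs3, the feedback inhibitor of STAT3, measured 2.94 and 2.10 CPM, 6.29 and 5.39 CPM and 5.54 and 3.33 CPM in the same order. Over 18 gp130 and STAT3 genes the median log2 fold change was -0.03, and both pools were above both naïve pools in 12 at 3 D (66.7%, against 20.9% of all genes) and 14 at 2 W (77.8%, against 21.8%). None were called in edgeR, and DESeq2 called Cntfr lower (adjusted p = 0.00252).

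The cytokine Lif was low, at 1.17 and 2.01 CPM at 3 D and 0.878 and 0.873 CPM at 2 W. Cebpd, a STAT3 target, measured 40.5 and 41.7 CPM at 3 D and 25.4 and 31.5 CPM at 2 W, against 11.1 and 11.3 CPM in naïve retina (log2 fold change -0.53, SE 0.18, adjusted p = 0.764). A2m, the protease inhibitor alpha-2-macroglobulin, measured 9.64 and 9.12 CPM and 11.9 and 14.0 CPM, against 1.91 and 2.81 CPM (log2 fold change 0.47, SE 0.27, adjusted p = 1). Cntf, a neuroprotective cytokine of Müller glia, measured 5.98 and 7.19 CPM at 3 D and 10.02 and 9.83 CPM at 2 W, with no overlap and an adjusted p of 0.961.

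A pair of genes for secreted signals of stressed retina had higher 2 W values, without a call in edgeR. Edn2, endothelin 2, which injured photoreceptors express, measured 2.19 and 0.273 CPM in naïve retina, 10.97 and 3.36 CPM at 3 D and 29.1 and 42.4 CPM at 2 W. The log2 fold change of 2.51 (SE 0.499) did not pass, with an adjusted p of 0.232. Fgf2, a survival factor for photoreceptors, measured 0.397 and 0.246 CPM, 3.30 and 0.852 CPM and 14.0 and 3.85 CPM in the same order of groups. Its female pools were higher than its male pools at both times, and it passed in DESeq2 (adjusted p = 0.00306) and not in edgeR (log2 fold change 2.13, SE 0.36, adjusted p = 0.118).

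Astrocyte and Müller glia lists held no calls in edgeR, and DESeq2 called 1 Müller glia gene, Hes1, lower (adjusted p = 0.0356). Among 12 PAN-reactive astrocyte genes, both pools were above both naïve pools in 10 at 3 D (83.3%, against 20.9% of all genes) and 9 at 2 W (75%, against 21.8%), and the median log2 fold change between the times was -0.03. Serpina3n, a serpin of reactive astrocytes, measured 2.19 and 1.77 CPM in naïve retina, 22.4 and 9.90 CPM at 3 D and 17.2 and 19.4 CPM at 2 W. Lcn2 (lipocalin 2) was high in a single library, the 3 D female pool, with 37.1 and 4.96 CPM at 3 D and 8.96 and 6.44 CPM at 2 W, and Timp1 likewise, with 3.70 and 0.652 CPM and 0.384 and 0.873 CPM. The A1 and A2 lists had medians of -0.00259 and -0.14. In the PAN, A1 and A2 lists the median differed in sign between the sexes. It was -0.28, -0.29 and -0.28 between the female pools, and 0.18, 0.58 and 0.70 between the male pools. Of 20 Müller glia genes, 5 were higher and 4 lower in both 2 W pools, with a median of 0.14. Glul, the glutamine synthetase of Müller glia, measured 1042 and 982 CPM at 3 D and 987 and 952 CPM at 2 W, both below the naïve 1290.1 and 1216 CPM. Rlbp1, which carries retinoids in the visual cycle, measured 423 and 332 CPM and 569 and 499.7 CPM, against 522 and 521 CPM (log2 fold change 0.51, SE 0.14, adjusted p = 0.516).

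Microglial and complement genes were measured at low levels and gave no calls in edgeR or DESeq2. The complement component C1qa measured 5.93 and 4.61 CPM in naïve retina, 7.92 and 7.14 CPM at 3 D and 13.6 and 14.7 CPM at 2 W, so that the times did not overlap (log2 fold change 0.92, SE 0.28, adjusted p = 0.602). Cx3cr1, the fractalkine receptor of microglia, measured 5.37 and 4.31 CPM, 8.72 and 7.52 CPM and 12.7 and 12.4 CPM (log2 fold change 0.64, SE 0.28, adjusted p = 0.933). Cd68, a lysosomal protein of phagocytes, went the other way, with 2.52 and 1.96 CPM, 10.3 and 11.1 CPM and 6.46 and 4.91 CPM (log2 fold change -0.92, SE 0.31, adjusted p = 0.731). The homeostatic list of 14 genes had a median of 0.20 and the 17 complement genes a median of 0.29. For complement the median differed in sign between the sexes, at -0.12 between the female pools and 0.72 between the male pools.

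The 3 D pools were far apart in several immune genes, with the female pool above the male pool. Lyz2 measured 57.2 and 6.34 CPM in the 3 D pools and 13.7 and 12.8 CPM in the 2 W pools, and the class II gene H2-Aa 4.87 and 0.175 CPM and 1.32 and 0.764 CPM. Trem2, a lipid receptor of microglia, measured 6.47 and 2.13 CPM and 6.35 and 5.90 CPM. In these 3 genes the 2 W values lay within the range of the 3 D pools. The complement gene C4b measured 20.2 and 9.63 CPM at 3 D and 22.9 and 20.7 CPM at 2 W, and C3 measured 7.61 and 2.01 CPM and 0.421 and 1.80 CPM, so that both 2 W pools were above both 3 D pools for C4b and below them for C3, with adjusted p of 0.936 and 0.950. Aif1 (IBA1) measured 4.10 and 1.20 CPM and 4.46 and 3.14 CPM, and the purinergic receptor P2ry12 1.76 and 1.13 CPM and 0.988 and 0.846 CPM, both at a few CPM. Of 17 neutrophil and monocyte markers, 3 passed the filter on low counts.

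Interferon-stimulated genes lay higher at 2 W, again without a call. Of 25 tested, both 2 W pools were above both 3 D pools in 18 and below them in 1, with a median log2 fold change of 0.42. DESeq2 called none either, and 6 had an unadjusted p under 0.05, all higher, against 408 higher of 21551 over all genes. Both pools were above both naïve pools in 18 genes at 3 D (72%, against 20.9% of all genes) and 21 at 2 W (84%, against 21.8%). Transcription factors of the interferon pathway bind the interferon-stimulated response element, searched here on both strands as GAAA, any 2 bases and GAAA. The windows of Isg15 (chr4:156200819-156201068, minus strand) and Ifit1 (chr19:34640639-34640888, plus strand), again 250 bases before the RefSeq start on GRCm38.p6, are shown as the classic members of this group, with the matches in capitals.
Isg15: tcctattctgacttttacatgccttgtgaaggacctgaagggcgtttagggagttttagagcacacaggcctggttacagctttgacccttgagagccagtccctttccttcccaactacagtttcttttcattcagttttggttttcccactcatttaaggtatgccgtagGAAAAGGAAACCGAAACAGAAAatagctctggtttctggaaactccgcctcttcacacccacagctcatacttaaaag
Ifit1: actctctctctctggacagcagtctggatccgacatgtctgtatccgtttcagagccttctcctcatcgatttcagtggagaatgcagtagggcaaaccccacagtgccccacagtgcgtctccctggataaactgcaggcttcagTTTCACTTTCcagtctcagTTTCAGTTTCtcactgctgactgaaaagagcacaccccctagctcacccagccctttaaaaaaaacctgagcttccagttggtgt
In Isg15 the 3 matches overlap each other and form 1 run of capitals. Over the whole RefSeq window, at least 1 match was found in 13 of the 20 genes of the list that have a window (65.0%) and in 3.58% of tested genes with one. The list holds known interferon targets, so a higher share follows in part from its choice. The same element was found in 5 of 17 RGC transcription factor and subtype genes (29.4%). The AP-1 motif TGANTCA was in 8 of the 20 interferon genes (40%, against 6.53%). Ifit1, which binds foreign RNA, measured 3.41 and 4.69 CPM in naïve retina, 7.52 and 8.97 CPM at 3 D and 15.5 and 10.8 CPM at 2 W (log2 fold change 0.66, SE 0.31, adjusted p = 0.956). Isg15, a ubiquitin-like protein, was near 1 to 3 CPM, at 1.91 and 0.953 CPM and 2.72 and 2.13 CPM (log2 fold change 0.83, SE 0.52, adjusted p = 1). Oasl2 measured 14.8 and 15.4 CPM and 29.2 and 23.1 CPM (log2 fold change 0.79, SE 0.23, adjusted p = 0.552). B2m, the light chain of MHC class I, measured 68.8 and 33.8 CPM and 73.4 and 71.8 CPM, with a log2 fold change of 0.59 (SE 0.24). In the antigen presentation list, 7 of 19 genes were higher in both 2 W pools and 0 lower, none called, with a median of 0.13.

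Rod genes lay slightly higher at 2 W, without a call. Of 16 rod genes, both 2 W pools were above both 3 D pools in 12 and below in 0, with a median log2 fold change of 0.22. Both 3 D pools had been below both naïve pools in 11 of the 16 (68.8%, against 18.3% of all genes). At 2 W both pools were above both naïve pools in 6 (37.5%, against 21.8%) and below them in 3 (18.8%, against 19.8%). Gnat1 measured 20520.5 and 18915 CPM at 3 D and 24542 and 22495 CPM at 2 W, with no overlap (log2 fold change 0.26, SE 0.07, adjusted p = 0.449). Opn1sw, the short-wave cone opsin, measured 1027 and 904 CPM and 826 and 870.0 CPM, with a log2 fold change of -0.18 (SE 0.14). Cone, bipolar, and amacrine and horizontal genes had medians of 0.15, 0.03 and 0.01. Gad1 of amacrine cells measured 195 and 251 CPM at 3 D and 246 and 201 CPM at 2 W, with a log2 fold change of 0.01 (SE 0.18).

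Genes of glycolysis, on which photoreceptors depend, lay higher at 2 W by modest amounts. This list too was written after some values had been seen, and it counts 19 gene IDs because Aldoa has 2, of which the abundant one is given. Both 2 W pools were above both 3 D pools in 12 of 19 and below in 1, and the median log2 fold change was 0.32. An unadjusted p under 0.05 was found for 11, all higher, against 408 higher of 21551 over all genes. Aldoa (aldolase A) measured 3122 and 3250.0 CPM at 3 D, 5345 and 5621 CPM at 2 W and 4888 and 4678 CPM in naïve retina (log2 fold change 0.79, SE 0.10, adjusted p = 0.0552). Pgam1, phosphoglycerate mutase, measured 556 and 589 CPM, 1017 and 1021 CPM and 769 and 909 CPM (log2 fold change 0.84, SE 0.13, adjusted p = 0.107). Pkm, pyruvate kinase, measured 3793 and 3971 CPM, 5423 and 5157 CPM and 5215 and 5026 CPM (log2 fold change 0.45, SE 0.10, adjusted p = 0.303). Both 3 D pools were below both naïve pools in 16 of 19 (84.2%, against 18.3% of all genes). The 2 W values of Aldoa, Pgam1 and Pkm stood closer to the naïve pools than the 3 D values did. Of 13 housekeeping genes, both 2 W pools were above both 3 D pools in 6 (46.2%, against 17.5% of all genes) and below in 0. Their median log2 fold change was 0.09. Whether a difference across the libraries underlies the rises in rod and glycolysis genes was not tested. Eno1b was called, with 67.6 and 63.0 CPM at 3 D and 195 and 195 CPM at 2 W (log2 fold change 1.58, SE 0.14, adjusted p = 0.0108). It is a retrotransposed copy of Eno1, with which it can share reads, its naïve pools were 82.9 and 166 CPM, and its value is uncertain for that reason. Eno1 itself had a log2 fold change of 0.52 (SE 0.10) and an adjusted p of 0.199.

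**Figure D4:**
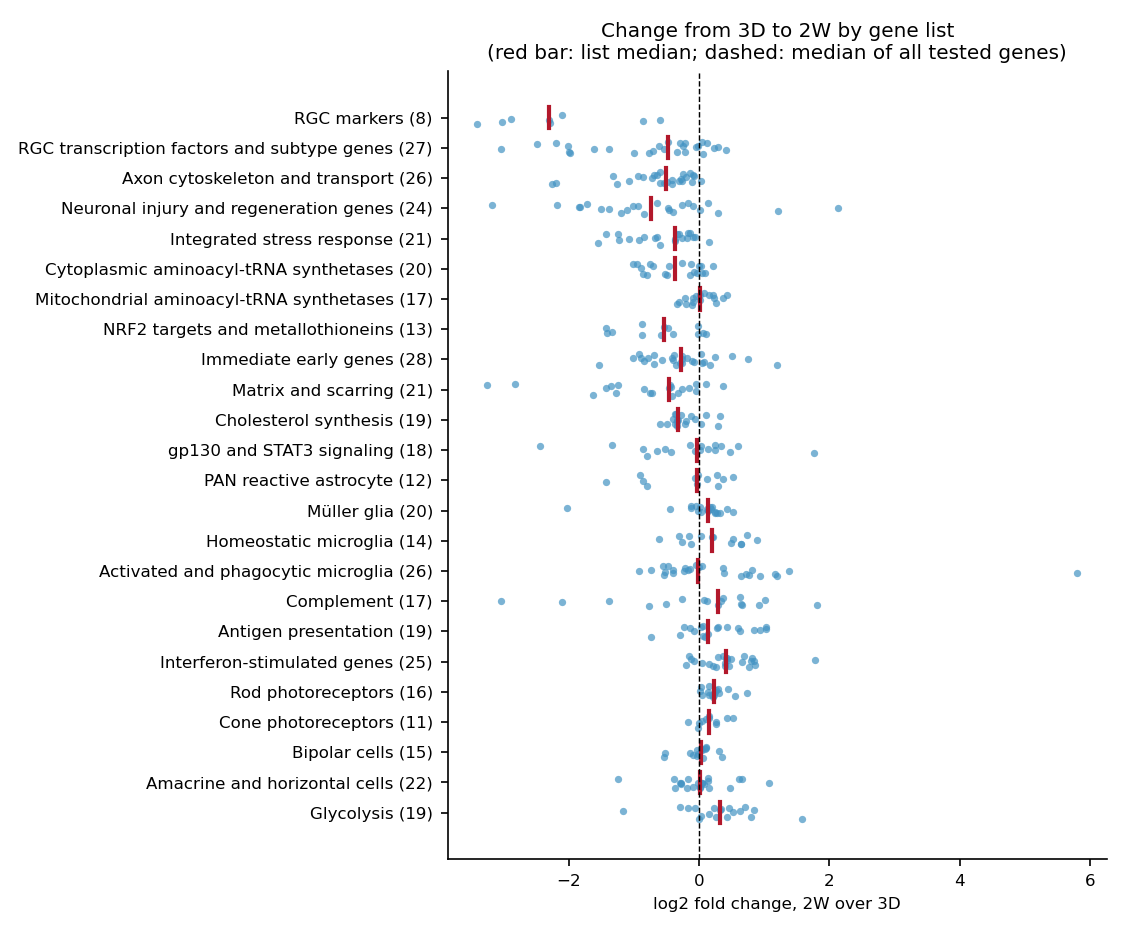
Log2 fold change from 3 D to 2 W (horizontal axis) of each tested member of 24 gene lists (rows, with the number tested in brackets). Blue points are genes, red bars are list medians and the dashed line is the median of all tested genes. RGC markers have the lowest median, -2.30, and interferon-stimulated genes the highest of those plotted, 0.42.

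The remaining lists described the other cells that a retina sample can hold. The median log2 fold change of pigment epithelium and melanocyte genes was -0.25, with -0.95 between the female pools and 0.36 between the male pools, and Rpe65 measured 25.1 and 14.4 CPM at 3 D and 10.2 and 17.1 CPM at 2 W. Blood genes were lower in both 2 W pools in 5 of 6, with a median of -0.43. Oligodendrocyte genes had a median of -0.22. The part of these cells in the results above was not tested. Of 14 cell cycle genes tested, 4 were lower and 2 higher in both 2 W pools. Knstrn, a kinetochore gene, measured 2.77 and 2.56 CPM at 3 D and 7.08 and 8.63 CPM at 2 W, against 6.605 and 7.45 CPM in naïve retina (log2 fold change 1.56, SE 0.36, adjusted p = 0.323).

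The 9 genes called higher rested on less even data than the 15 called lower. Naïve pools were more than 2-fold apart, or had a pool at 0, in 5 of the 9 and in 1 of the 15, which is Mmp12. Of the 24 called genes, 10 overlapped another gene of at least 1 CPM (5 higher and 5 lower). In 19 the FPKM changed the same way by more than 1 on the log2 scale (6 higher and 13 lower). The shares over all tested genes were not counted, so these counts compare the called genes with each other only. Elfn1, a synaptic adhesion protein with leucine-rich repeats, measured 0.986 and 0.927 CPM at 3 D and 36.9 and 11.9 CPM at 2 W, against 51.3 and 21.2 CPM in naïve retina (log2 fold change 4.45, SE 0.44, adjusted p = 0.0199). By counts, the 3 D pools are thus the ones that stand apart. FPKM changed less than counts on the log2 scale, by 1.56 for Elfn1 and 1.39 for Mir124-2hg. Mir124-2hg, the host gene of a neuronal microRNA, measured 128 and 87.1 CPM and 794 and 745 CPM (log2 fold change 2.87, SE 0.17, adjusted p = 0.00393), while its naïve pools stood at 91.3 and 589.9 CPM. Mast2, a microtubule-associated kinase, measured 48.9 and 48.8 CPM and 118 and 133 CPM (log2 fold change 1.37, SE 0.15, adjusted p = 0.0373), but its FPKM changed by 0.25 on the log2 scale.

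Dpm1 and Gm20716 share a locus, and their counts moved in opposite directions. Dpm1, a subunit of dolichol-phosphate mannose synthase, measured 19.0 and 13.7 CPM at 3 D and 58.4 and 67.1 CPM at 2 W (log2 fold change 1.96, SE 0.22, adjusted p = 0.0373). Gm20716 lies on the same strand and fell from 136 and 135 CPM to 5.32 and 1.80 CPM (log2 fold change -5.38, SE 0.38, adjusted p = 0.00393). The sum over the locus of Dpm1 changed by -1.19 on the log2 scale. The called genes Gm38431 and A830082N09Rik, which lack official names, had log2 fold changes of 10.85 and 7.86. Both sizes rest on 3 D values at or near 0. Gm38431 measured 0 CPM in both 3 D pools, 7.70 and 3.99 CPM at 2 W and 8.12 and 0 CPM in naïve retina, and DESeq2 did not call it (adjusted p = 0.490). A830082N09Rik measured 0.154 and 0.0251 CPM, 17.9 and 22.2 CPM and 23.5 and 0.0818 CPM in the same order. For Gm38431 the sum over its overlapping genes changed by -0.10. The FPKM of A830082N09Rik changed by 1.08 on the log2 scale, far less than its counts.

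The change from 3 D to 2 W after crush was then compared with that in the retina after microbead injection, which raises eye pressure without cutting axons. The difference in change between the injuries was called for 10 of 23598 genes (0.0424%), 6 of them lower and 4 higher in crush than in glaucoma. CPM of the glaucoma pools were scaled over the 8 libraries of this comparison, and those of the nerve over the 12 crush libraries, so that they are not on exactly the scale of the values above. Slc17a6 measured 64.8 and 60.8 CPM at 3 D and 59.7 and 62.9 CPM at 2 W after microbeads, so that the fall after crush differed by -2.999 on the log2 scale (adjusted p = 0.0131). Nefm differed by -2.73 (adjusted p = 0.0197), Sbk1 by -3.42 (adjusted p = 0.00808) and Zfp280b by -4.97 (adjusted p = 0.0233). The others called lower were Hs6st1 and Purb. Dpm1, Mir124-2hg and Elfn1 differed in the other direction, by 3.88, 2.81 and 5.68 (adjusted p = 0.0131, 0.0131 and 0.0131), and the fourth gene called higher was Gm45062. For Nefl, with 389 and 622 CPM at 3 D and 592 and 614 CPM at 2 W after microbeads, the difference of -2.47 did not pass (adjusted p = 0.0572), nor did that of Sncg, -2.56 (adjusted p = 0.320).

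One glaucoma library bears on this comparison. The female 3 D glaucoma pool had injury gene levels like those after crush, with Sprr1a at 18.9 and 1.96 CPM, Ecel1 at 64.6 and 2.04 CPM, Atf3 at 74.7 and 28.1 CPM and Mmp12 at 35.8 and 1.61 CPM in the female and male 3 D glaucoma pools. Each of the RGC markers was lower in this female pool than in the male one, as in Rbpms2 at 9.88 and 30.3 CPM and Sncg at 87.6 and 207 CPM. Slc17a6 was not. Low female 3 D values raise the glaucoma change of such genes, and with it the size of their difference from crush. Mmp12 had a log2 fold change of -3.65 in glaucoma too, and its difference between the injuries, 0.52, was not called (adjusted p = 0.933). A fit without that pool leaves 1 glaucoma pool at 3 D, and sex was there 1 term shared by both injuries. With all 8 libraries, this shared term alone gave 8 calls in place of 10. Without the pool, Slc17a6 differed by -3.11, Nefm by -2.48, Sbk1 by -3.37 and Zfp280b by -5.57. Sncg differed by -1.82, against -2.56 with all 8 libraries. Elfn1, at 6.16, was no longer called. Between the gene values of the main difference test and these, the pool and the sex term changed together. Their parts in the change of single genes were not separated here.

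**Figure D5:**
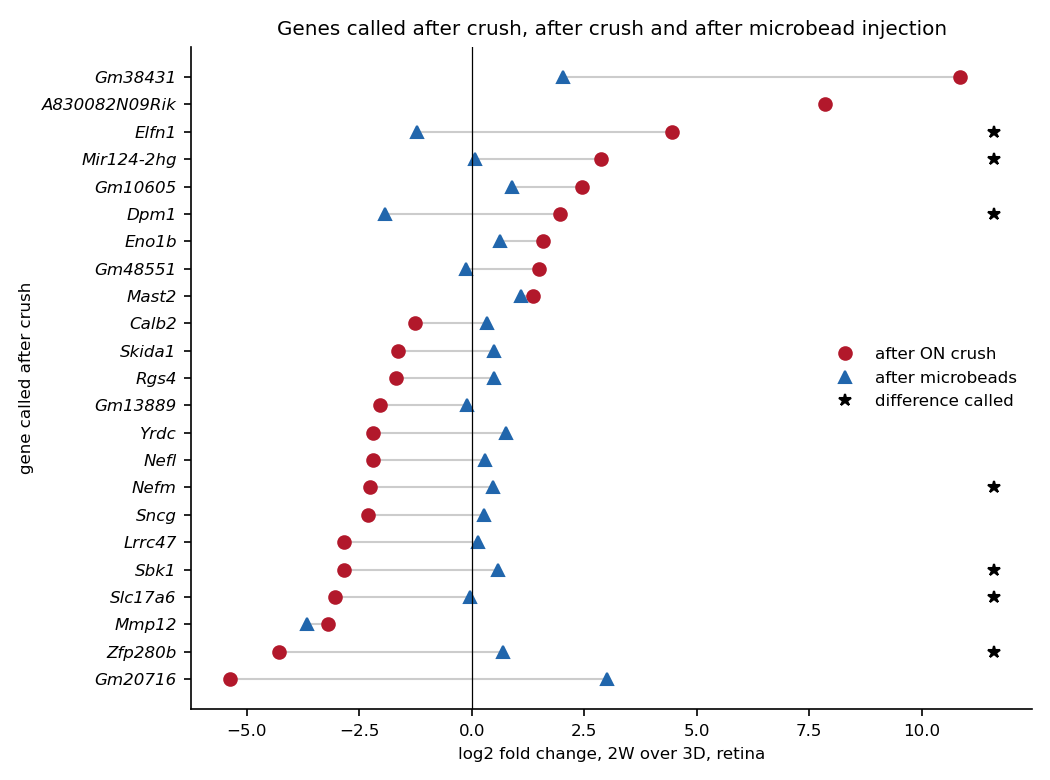
Log2 fold change from 3 D to 2 W (horizontal axis) of 23 of the 24 called genes (rows) in retina after ON crush (red circles) and after microbead injection (blue triangles). Stars mark the 7 genes whose difference between the injuries was called. A830082N09Rik has no triangle because it did not pass the filter in glaucoma. The genes shown that were called lower after crush lie near 0 or above it after microbeads, except for Mmp12.

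Within the same mice, the nerve segments were compared with the retina in the same way. The difference in change between retina and UON was called for 0 of 24424 genes (0%), with 1474 at an unadjusted p under 0.05 and 330 called by DESeq2 (0.81%). Between retina and MON it was called for 0 of 23810 genes (0%), with 2295 at an unadjusted p under 0.05 and 506 called by DESeq2 (1.22%). With the pool of mice as a block, which uses that the tissues came from the same mice, 1 gene (0.00409%, Rph3a) was called against UON and 44 genes (0.185%) against MON. The 44 include 5 genes of the 24, namely Nefl, Sbk1, Elfn1, Gm38431 and Gm20716. Neurofilament RNA was also lower at 2 W in the nerve, where Nefl measured 139.6 and 107 CPM at 3 D and 8.81 and 3.38 CPM at 2 W in UON, and 82.9 and 31.7 CPM and 0.562 and 0.119 CPM in MON. The blocked difference of Nefl, retina minus MON, was 5.30 (SE 0.70) on the log2 scale, with an adjusted p of 0.0463, and the fall within MON was the larger one. That of Sbk1 was -3.13 (SE 0.40), with an adjusted p of 0.0431. Mmp12 measured 2.25 and 0.763 CPM at 3 D and 10.4 and 17.8 CPM at 2 W in UON and 9.83 and 13.7 CPM and 86.7 and 20.2 CPM in MON, which is the opposite order to the retina. Its difference from the retina was -6.46 for UON and -5.03 for MON on the log2 scale, with adjusted p of 0.541 and 0.408, and with the block the adjusted p were 0.292 and 0.0529. The median log2 fold change of cell cycle genes was -3.39 in UON and -2.83 in MON, against -0.21 in the retina. The proliferation marker Mki67 measured 96.3 and 45.5 CPM at 3 D and 7.004 and 0.887 CPM at 2 W in UON, while in the retina it was 0.370 and 0 CPM and 0.219 and 0.109 CPM.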

How the data were processed

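Retinal RNA was extracted with TRIzol and sequenced after an ultra-low-input library kit. The authors used HISAT2 v2.2.1 for alignment to GRCm38 and StringTie v1.3.0 with Gencode annotation, and deposited estimated counts per gene that the StringTie count script derives from coverage and transcript length, without normalization. FPKM for each gene and library were also deposited, as StringTie wrote them, and slightly negative ones were set to 0. The strand setting is not given in the sources used here. The 4 libraries held 31.4 to 56.0 M estimated counts. The script divides bases by an assumed read length, so a read pair can add several counts, and counts divided by 4 were tried for that reason.

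Differences were tested with edgeR 4.0.16 in R 4.3.3: TMM factors, filterByExpr (minimum count 10, minimum total 15), time and sex as terms, the quasi-likelihood F test with 1 residual degree of freedom, and Benjamini-Hochberg adjustment over all genes tested. SE is the log2 fold change divided by the square root of F. DESeq2 1.42.0 was the alternative. Differences between injuries or tissues were interaction terms over the libraries of both. In the main fit the sex term takes up any constant offset between female and male pools. The residual spread behind its p-values is therefore how far the change with time differed between the female and the male pools, which also differ in mice. edgeR combined this spread with that shared over all genes, at 6.594 prior degrees of freedom.

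Members and 40 gene lists were chosen with earlier results of these data known, and the lists of aminoacyl-tRNA synthetases and glycolysis after their values were seen, so no list was tested. Genes were named if called with an official symbol (the 12 largest in each direction, changed alike in both sexes, at a mean of at least 1 CPM), if called in a list, or if in a fixed set of RGC, injury, glial and immune genes. For each difference test the 3 largest called in each direction were also named. Some genes of that set, and 1 called gene, are not reported here. Other named genes are examples chosen after their values were seen. Promoter windows are from RefSeq on GRCm38.p6, matched by symbol. The CRE, AP-1 and STAT motifs were searched in them as well, and most of those shares are not given.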

Additional observations from a re-analysis of the deposited data

Results flagged for a closer look

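For 7 genes called after crush, the change from 3 D to 2 W in the retina differed between crush and glaucoma by a test of the difference itself (edgeR, interaction of injury and time). The values are the log2 fold change after crush minus that after microbeads. Slc17a6 differed by -2.999, Nefm by -2.73, Sbk1 by -3.42 and Zfp280b by -4.97, with both crush pools lower at 2 W in each. Dpm1 differed by 3.88, Mir124-2hg by 2.81 and Elfn1 by 5.68, with both crush pools higher at 2 W. Mir124-2hg and Elfn1 are the genes among these whose naïve pools were more than 2-fold apart, and Dpm1 shares its locus and strand with Gm20716. After crush, FPKM changed less than counts on the log2 scale for Zfp280b (-0.86), Mir124-2hg (1.39) and Elfn1 (1.56). With n = 2 pools in each group, no group was large enough for a check of single samples that stand apart.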

How the results depend on the processing

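The count of called genes, 24, was 128 with DESeq2, 130 without the filter on low counts, 11 with the naïve pools in the fit, 11 with all 12 retinal libraries, 11 without sex as a term and 68 with counts divided by 4. RLE size factors gave 23. Leaving out each crush pool gave 31 to 87 calls, with 11 to 18 of the 24 kept, and in these fits the lone pool of a time is assumed to vary like the others. Calls for Slc17a6, Nefl, Nefm, Sbk1 and Zfp280b were kept in all 11 alternatives, and for Sncg in 10, while Mmp12, Eno1b, Mir124-2hg, Gm48551 and Gm13889 were called in 0 of the 4 fits without a pool. The difference between retina and UON gave 330 calls with DESeq2 and 1 with the pool of mice as a block, that between retina and MON 506 and 44, and that between crush and glaucoma 119 with DESeq2, 8 with shared sex and 21 without the female 3 D glaucoma pool, an alternative chosen after seeing the data. No paired analysis was possible because, for 2 W against 3 D in the retina, different mice were used at each time and the labels give no replicate numbers. Sex was a term there, and tissues of the same mice were blocked as given above. When pools were left out in turn, the log2 fold change of 9 genes changed sign: Aif1 from -0.17 to 1.77, Bbc3 from -1.60 to 0.24, Gad1 from -0.24 to 0.26, Gfap from -0.29 to 0.51, Lcn2 from -2.20 to 0.56, Osmr from -0.25 to 0.11, Serpina3n from -0.26 to 0.86, Stat3 from -0.3579 to 0.07791 and Timp1 from -3.22 to 0.39. The cause was not tested. No setting moved the median of all genes by more than 0.1. Both pools of a time differ in sex and in mice, and 1 residual degree of freedom limits what could be called.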

Other observations

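Of the gene lists not described above, chemokines and cytokines had a median log2 fold change of -0.02 over 14 tested of 19, and the T cell chemokine Ccl5 measured 0.493 and 0.201 CPM at 3 D and 1.79 and 2.54 CPM at 2 W (adjusted p = 0.517 in edgeR). Endothelial genes had a median of -0.05, pericyte and smooth muscle genes -0.15 and circadian clock genes 0.07. Itgax (CD11c), a gene of dendritic cells and activated microglia, was at 0.0308 and 0 CPM in the 3 D pools and at 0 in both naïve pools, and measured 1.26 and 0.546 CPM at 2 W (adjusted p = 0.470). Jak3, a kinase of cytokine receptors, measured 2.56 and 1.003 CPM at 3 D and 5.85 and 5.16 CPM at 2 W (log2 fold change 1.77, SE 0.46, adjusted p = 0.453). DESeq2 called none of Ccl5, Itgax and Jak3. These 3 genes were chosen after their values were seen.

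Apoe was read very unevenly within groups, at 1519 and 1146 CPM in the 3 D pools, 364 and 1702 CPM in the 2 W pools and 1347 and 259.9 CPM in the naïve pools, so that no order of the groups can be read from it.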
